A study of Mus musculus with 13 samples.

Results

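Amy1, Chia and Dnase1 encode enzymes that leave the cell in secretions such as saliva, and the 3 genes were followed here through the development of the mouse submandibular gland. They were chosen by their FPKM in these samples, which was already known to be high in the glands of 12 week old mice and to differ between the replicates of that age, so their levels below are a description and carry no test. They make up 3 of the 23364 genes that each of the 13 samples lists. All 3 genes are listed in every sample, although Chia had 0 reads in 5 of them.

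RNA-seq was performed on submandibular glands of C57BL/6 mice at 6 ages, namely the embryonic days E14.5, E16.5 and E18.5, postnatal day 5 (P5), 4 weeks (4wk) and 12 weeks (12wk). There were 3 samples at E14.5 and 2 at every other age. Each E14.5 sample pooled the glands of 3 animals and each E16.5 or E18.5 sample those of 2 animals, the 4wk and 12wk mice were male, and the sex of the younger animals was not ascertained. No treatment, transgene or mutant allele was used in any group. The labels number the samples of an age as replicates and the study's text calls them biological ones, and the 3 embryonic ages (7 samples), P5 (2 samples) and both older ages (4 samples) were compared as the embryo, neonatal and adult stages of the study. In tissue RNA of this kind, more cells of a type and more RNA per cell cannot be told apart.

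Salivary glands secrete a fluid made by acinar cells, which pack enzymes and other proteins into granules, and ducts then modify it. Amylase cuts the starch of food, acidic mammalian chitinase cuts the chitin of insects and fungi, and deoxyribonuclease I cuts DNA outside the cell. In the mouse, salivary amylase and deoxyribonuclease I are best known as products of the parotid gland, whereas the submandibular gland of the male is known for its granular ducts, which make nerve growth factor, epidermal growth factor and many kallikreins. The Amy1 gene carries an upstream start used in the salivary glands.

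Amy1 lies on chromosome 3 of mm9, the genome build of the files, at chr3:113258628-113309617 on the minus strand. Chia lies on the same chromosome at chr3:105916147-105935038 on the plus strand, and Dnase1 on chromosome 16 at chr16:4036942-4040024 on the plus strand. The reads were 50 bases long and those that map to more than 1 place were not counted, so it matters how far a gene resembles its relatives. Of the 1936 windows of 50 bases in the Amy1 transcript, 97.3% were found once in the genome and in the transcripts of a single gene. All 1632 windows of Chia and all 1237 windows of Dnase1 were found once. The pancreatic amylase genes Amy2a2, Amy2a3, Amy2a4 and Amy2a5 sit beside Amy1 and had coding sequences 100% identical to each other, and 0% of their 1668 windows was found once. Each was listed at 0 in all 13 samples, a value which the counting rule alone would give at any level of expression.

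Amy1 and the Amy2a genes can nonetheless be separated by most reads. Their coding sequences were 89.9% identical over 1527 aligned bases, and 34 of 1429 aligned stretches of 50 bases were the same in both. The stretch with the most differences, 15 of 50 bases, is printed because it is the aligned coding stretch where a read of Amy1 differs most from Amy2a5. Parts of the transcripts outside the aligned coding bases were not searched for it. It covers coding bases 356 to 405, in exon 4 of 11 of Amy1 (chr3:113267895-113267944 on the minus strand of mm9) and in exon 3 of 10 of Amy2a5 (chr3:113059790-113059839, also minus). Capitals mark the bases that differ.
Amy1: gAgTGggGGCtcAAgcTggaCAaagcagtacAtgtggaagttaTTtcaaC
Amy2a5: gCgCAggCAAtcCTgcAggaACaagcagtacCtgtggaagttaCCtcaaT
The next stretch is the first with no difference, and a read that falls within it cannot be given to either gene. It covers coding bases 298 to 347 and spans the junction of exons 3 and 4 of Amy1, with 18 and 32 bases on either side.
Amy1 and Amy2a5: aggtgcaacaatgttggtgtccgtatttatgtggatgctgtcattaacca

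The bases just before the start sites are shown because all 3 genes were high in the same samples. They were taken from RefSeq on the assembly GRCm38.p6, which is a later build than that of the files, and Chia is named Chia1 there. Each line gives 30 bases that end 36 bases before a start of the gene, with the letters TATAAA in capitals where they occur on the strand shown.
Amy1 upstream start, chr3:113577786-113577815 (-): gccaaaaataagaacaatgtttttcttaga
Chia, chr3:106113317-106113346 (+): tgataagtaagcactcaggtgtTATAAAaa
Dnase1 upstream start, chr16:4036971-4037000 (+): gaggcaccttgtctgttgatgtcagcacgt
Dnase1 second start, chr16:4037080-4037109 (+): atgcgccctggggaggtcaatactgcctga
The starts of Dnase1 were 109 bases apart, so its windows overlap. In windows of 300 bases, 250 of them before the start, the core promoter letters TATAAA occurred on either strand in 13.6% of 32851 RefSeq windows. They began 43 bases before the Chia start on the gene's strand and 110 bases before the upstream Dnase1 start on the opposite strand, and were not in the window of the upstream Amy1 start. The letters AGAACA, the core of sites for steroid hormone receptors, were in the Amy1 window and both Dnase1 windows but not in that of Chia, against 19% of all windows. The E-box letters CANNTG were in 72.3% of all windows and in all 4 of these. Its form CACCTG, bound by the pancreatic factor complex PTF1 together with TTTCCC, occurred at 2 places in the Chia window and not in those of Amy1 and Dnase1, against 20.2% of all windows. TTTCCC was in 25.2% of all windows and in none of these 4. Such matches describe the letters alone.

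The samples held between 5817293 (4wk) and 48314162 (P5) reads on genes, as recovered from the steps of the deposited FPKM (fragments per kilobase of transcript, scaled to the sequencing depth of the sample). For a gene of 1 kilobase a single read was worth between 0.0207 and 0.1719 FPKM. The 4wk samples were the shallowest, which bears on the low values of Chia and Dnase1 at that age. The acinar markers Aqp5, Bhlha15, Slc12a2, Ano1 and Chrm3 were all detected, with summed levels of 596 to 686 FPKM at 4wk and 444 to 450 FPKM at 12wk. The granular duct markers summed to between 58542 and 64517 FPKM at 12wk, although Ren1 among them was at or near 0 in every sample. Intervals given for single samples are exact 95% Poisson intervals on the reads and cover counting error only.

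Amy1 was low in the embryo, somewhat higher at P5 and 4wk, and far above all earlier values at 12wk. Its level was 1.65, 1.28 and 1.31 FPKM in the E14.5 samples, 0.0908 and 0.382 FPKM at E16.5, and 0.190 and 0.355 FPKM at E18.5. It was 2.86 and 1.95 FPKM at P5, 10.001 and 11.5 FPKM at 4wk, and 625 and 6359.6 FPKM at 12wk. The E14.5 samples thus lay above the later embryonic ones, and each age from P5 on lay above the age before it with no overlap of samples. In the order of mean levels (12wk, 4wk, P5, E14.5, E18.5, E16.5) only the neighbors E18.5 and E16.5 overlapped. Both rest on few reads, for example 6 reads in E16.5 replicate 1, with an interval of 0.0333 to 0.198 FPKM. At P5 the 252 and 150 reads give intervals of 2.52 to 3.24 FPKM and 1.65 to 2.29 FPKM, which do not touch those of E18.5. The lower of the 12wk samples was 54.3-fold above the higher of the 4wk samples.

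Chia was the gene with the widest range and the lowest starting point. The E14.5 samples had 1.09, 0.906 and 0.835 FPKM, from 32, 35 and 34 reads. All 4 samples of E16.5 and E18.5 had 0 reads, which allows levels of up to 0.0543 and 0.0528 FPKM at E16.5 and up to 0.113 and 0.0607 FPKM at E18.5 when 3 reads are taken as the limit. At P5 it stood at 0.0272 and 0.0156 FPKM, from 2 reads and 1 read. These few reads do not separate P5 from the later embryonic samples. At 4wk replicate 1 had 0 reads, which allows up to 0.338 FPKM, and replicate 2 had 3 reads or 0.247 FPKM, with an interval of 0.0510 to 0.723 FPKM. At 12wk Chia reached 668 and 6207 FPKM, so that the lower of the 12wk samples was 614-fold above the highest earlier sample, E14.5 replicate 1. By mean level the ages ran 12wk, E14.5, 4wk, P5 and then E18.5 and E16.5 at 0, and the neighbors 4wk and P5 overlapped.

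In the deposited FPKM Dnase1 was held at a low and even level until 4wk. It measured 4.13, 1.84 and 2.35 FPKM at E14.5, 1.42 and 2.198 FPKM at E16.5, and 1.94 and 1.09 FPKM at E18.5. The values were 1.79 and 1.16 FPKM at P5 and 2.37 and 1.83 FPKM at 4wk. Every pair of neighbors in the order of these 5 ages (E14.5, 4wk, E16.5, E18.5, P5) overlapped, and the 4wk values rest on 18 and 19 reads. At 12wk Dnase1 was at 148 and 1225 FPKM, and the lower of these samples was 35.7-fold above the highest earlier one, E14.5 replicate 1. Dnase1 thus shared the late high level with Amy1 and Chia, but not the absence of Chia reads at E16.5 and E18.5. In FPKM as deposited it also lacked the step of Amy1 between P5 and 4wk. After median-of-ratios rescaling Dnase1 was at 3.32 and 2.96 FPKM at 4wk against 1.65 and 1.13 FPKM at P5, without overlap. E14.5 replicate 1 was then at 3.08 FPKM, between the 4wk samples. Whether Dnase1 rose from P5 to 4wk thus depended on the scaling.

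**Figure D1:**
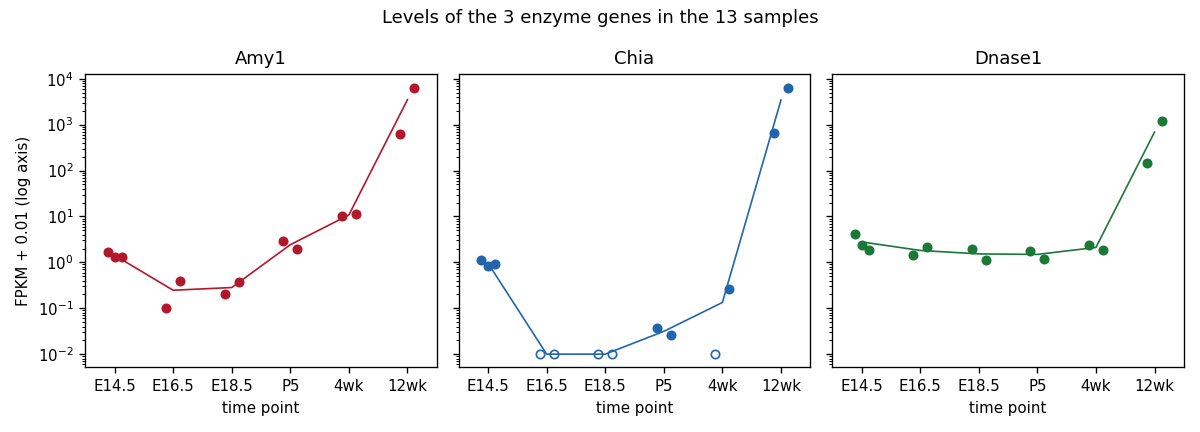
Levels of Amy1, Chia and Dnase1 in FPKM + 0.01 on a log axis, against the 6 time points. Each point is a sample (open where 0 reads were counted) and the lines join the means of the time points. All 3 genes are highest at 12wk, where replicate 1 and replicate 2 lie apart (625 and 6359.6 FPKM for Amy1), and Chia has 0 reads in the 4 samples of E16.5 and E18.5.

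On the log2(FPKM + 1) scale, the adult samples exceeded the embryonic ones by 6.53 ± 1.34 (SE) for Amy1, 5.17 ± 1.89 for Chia and 3.59 ± 1.27 for Dnase1. Of the 14650 genes tested over all samples, 43.6% were called at this contrast, 5.58% as higher in the adult and 38.0% as lower, where limma had to give an adjusted p below 0.1 and a log2 difference of 1 or more in either direction. After median-of-ratios rescaling the counts behind these shares went from 818 higher and 5567 lower to 2020 higher and 2147 lower, since the median difference over all genes went from -0.75 to -0.05. The same rescaling gave differences of 7.23 for Amy1, 5.59 for Chia and 4.32 for Dnase1. The adult mean of the 3 genes was carried by the 12wk samples. With the 4wk samples as the only adults, an alternative added after the data were seen, the differences to the embryo were 2.83 for Amy1, -0.25 for Chia and 0.03 for Dnase1. Against P5 the adult samples were higher by 5.502 ± 1.85 for Amy1, 5.55 ± 2.61 for Chia and 3.88 ± 1.76 for Dnase1, at a contrast where 23.1% of all tested genes were called, 2.31% as higher and 20.8% as lower. Between P5 and the embryo, where 12.3% of all tested genes passed, 4.14% upward and 8.14% downward (606 and 1192 genes, or 813 and 571 after rescaling), the differences were 1.03 ± 1.71 for Amy1, -0.38 ± 2.42 for Chia and -0.30 ± 1.63 for Dnase1, in a fit where the gap between 4wk and 12wk enters the spread.

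Within the adult stage, 12wk exceeded 4wk by 7.41 ± 0.73 for Amy1, 10.83 ± 0.70 for Chia and 7.11 ± 0.70 for Dnase1, in log2(FPKM + 1) and with the 6 ages as groups. At this contrast 5.15% of all tested genes were called, 2.68% as higher and 2.48% as lower. The value of Chia is set by the pseudocount, since its 4wk level rests on 3 reads in all. Without 12wk replicate 2 the differences were 5.74, 9.23 and 5.59 for Amy1, Chia and Dnase1, and without 12wk replicate 1 they were 9.08, 12.44 and 8.63. Of the 3 genes, each thus stood far above 4wk in either 12wk sample, while the size of the difference moved with the sample kept.

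The 2 samples at 12wk differed widely in these genes and little in most others. Replicate 2 was 10.2-fold above replicate 1 for Amy1, 9.27-fold for Chia and 8.26-fold for Dnase1 in FPKM + 1. Among the 11360 genes with at least 1 FPKM in either sample, these ratios ranked 3, 5 and 9 from the top. The median ratio over those genes was 0.938, and the 5th and 95th percentiles were 0.742 and 1.14. At the other ages the highest sample exceeded the lowest by at most 1.81-fold in FPKM + 1, for Dnase1 at E14.5. In FPKM with nothing added, where low values can differ more, the largest such ratios at ages with reads in every sample were 4.21 for Amy1 at E16.5, from 6 and 26 reads, and 2.24 for Dnase1 at E14.5. Counting error was small beside the gap, as Amy1 had 24854 and 329442 reads at 12wk, Chia 22229 and 268926 reads and Dnase1 4201 and 45467 reads.

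Relative to each other, the 3 genes changed far less between these samples. Chia stood at 1.07 times the FPKM of Amy1 in replicate 1 and 0.976 times in replicate 2, and Dnase1 at 0.236 and 0.193 times that of Amy1. In replicate 1 Amy1 ranked 55, Chia 51 and Dnase1 303 of all genes by FPKM. In replicate 2 they ranked 21, 22 and 36. Together the 3 genes took 0.199% of the summed FPKM in replicate 1 and 1.88% in replicate 2. At E14.5, by contrast, Chia was 0.635 to 0.709 times and Dnase1 1.44 to 2.503 times the level of Amy1.

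In FPKM + 1, a total of 19 genes were at least 4 times higher in 12wk replicate 2 than in replicate 1, and 2 genes were at least 4 times higher in replicate 1. With nothing added to the FPKM these counts were 43 and 21. Besides the 3 enzymes, the genes of high level among the 19 included Smr3a, an androgen-regulated protein of the submandibular gland (1106 and 10417.7 FPKM), Bpifa2, the parotid secretory protein (3770 and 33795 FPKM), and Cst10, a cystatin (311 and 2817 FPKM). The others included the salivary secretory genes Smgc (0.154 and 58.6 FPKM) and Dcpp2 (146 and 1202 FPKM), Pigr, the receptor that carries immunoglobulin into secretions (10.8 and 85.2 FPKM), and the proline-rich protein genes Prpmp5 (1.64 and 10.2 FPKM) and Prb1 (0.876 and 6.53 FPKM). These genes were picked after their values were seen. The acinar markers moved little by comparison, with ratios in FPKM + 1 of 0.969 for Aqp5, 0.805 for Bhlha15, 0.885 for Chrm3, 1.17 for Ano1 and 1.40 for Slc12a2. The granular duct genes Egf and Klk1b9 had ratios of 1.06 and 1.06.

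**Figure D2:**
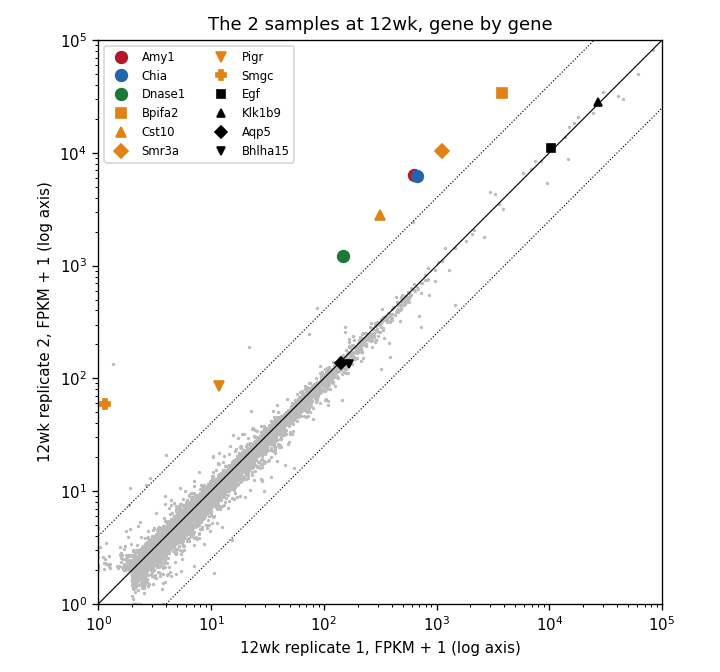
FPKM + 1 of every gene with at least 1 FPKM at 12wk, in replicate 1 (horizontal) and replicate 2 (vertical), both on log axes. The solid line marks equal levels and the dotted lines a ratio of 4 either way. Amy1, Chia and Dnase1 lie above the upper dotted line with Bpifa2, Cst10, Smr3a, Pigr and Smgc (orange), while the granular duct and acinar markers (black) lie near the line of equal levels.

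The markers typical of the parotid gland (Bpifa2, Prpmp5, Prp2, Prh1 and Prb1) moved with the enzymes between the 12wk samples, and their summed level was 3772 FPKM in replicate 1 and 33812 FPKM in replicate 2. Nearly all of that sum was Bpifa2, Prh1 was at 0 in both samples, and Prp2 was at 0.0964 FPKM and 0. Over the ages the list did not follow the 3 enzymes. It summed to 18058 to 26570 FPKM at E18.5 and 30416 to 30490 FPKM at P5, where Amy1 was below 3 FPKM and Chia below 0.03 FPKM, and to 568 to 714 FPKM at 4wk. Muc19, a mucin of the sublingual gland, measured 103 and 82.3 FPKM at 4wk and 0.0252 and 2.19 FPKM at 12wk, and the enzymes stood highest in the sample with the larger of the last 2 values. The part of the cells that these markers stand for in the levels of the 3 enzymes was not tested. The pancreatic enzymes, another exocrine set, summed to 0.724 and 1.01 FPKM at 12wk, and 7 of the 21 listed genes, among them Prss1 and Clps, were at 0 in all 13 samples. Macrophage markers summed to 79.5 to 92.7 FPKM at 12wk and to 63.7 to 80.4 FPKM at 4wk.

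**Figure D3:**
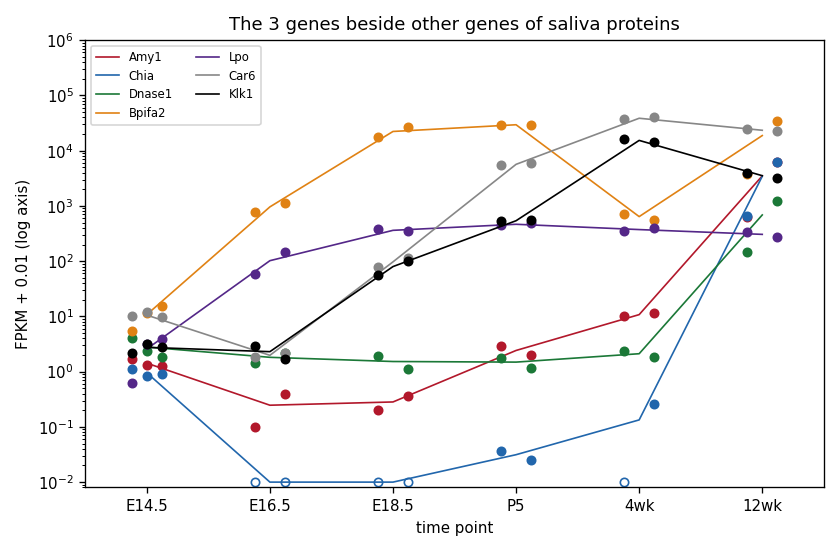
FPKM + 0.01 on a log axis against the 6 time points for Amy1, Chia and Dnase1 and for Bpifa2, Lpo, Car6 and Klk1, whose products are also secreted into saliva. Points are samples (open at 0 reads) and lines join the means. Bpifa2 lies between 18019 and 29524 FPKM at E18.5 and P5, when the 3 enzymes are below 3 FPKM, and Lpo is at 345 and 378 FPKM by E18.5.

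The E14.5 samples stood above E16.5 for both Amy1 and Chia, in 3 of 3 samples against 2 of 2. The same was true of other genes that are abundant at 12wk. Of the 81 genes with a mean of at least 500 FPKM at 12wk, 23 were higher in all 3 E14.5 samples than in both E16.5 samples. In 13 of these genes each E14.5 sample was at least 4 times the highest E16.5 sample plus 0.1 FPKM, and they comprised Chia, 9 kallikrein genes of the Klk1b family, Car6, Scgb1b27 and 2310057J18Rik. The E14.5 mean of those 13 genes was between 0.0274% and 0.0572% of their 12wk mean, and the share was 0.0274% for Chia, 0.0405% for Amy1 and 0.404% for Dnase1. These thresholds were chosen after the data were seen. The same counts were not made over all genes, so the 23 and 13 genes have no background share beside them. The cause of the higher E14.5 levels was not tested.

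The relatives of the 3 enzymes are given beside the shares of all tested genes, of which 2.68% were called higher at 12wk than at 4wk, so that counts of 0 in lists this small are near the background. In the list of amylases and other enzymes of starch and sugar digestion, 4 genes besides Amy1 were tested, and limma called 0 of them in either direction between 12wk and 4wk (3 at an unadjusted p below 0.05) and 0 between adult and embryo (1 at an unadjusted p below 0.05). Gaa, the lysosomal acid glucosidase, went from 15.1 and 10.3 FPKM at 4wk to 12.8 and 10.5 FPKM at 12wk. Ganc, another glucosidase, stood at 3.90 and 2.98 FPKM at 4wk and 2.49 and 1.49 FPKM at 12wk. Amy2b, a pancreatic amylase at chr3:112950574-112959645 on the minus strand, was at 0 in the 11 samples before 12wk. At 12wk it had 4 reads in replicate 1 (0.130 FPKM, interval 0.0353 to 0.332) and 42 reads in replicate 2 (1.05 FPKM, interval 0.753 to 1.41). The reads listed for Amy2b thus followed Amy1 in the order of the 12wk samples, where Amy1 had 24854 and 329442 reads. The windows of Amy2b were not examined, so whether these few reads came from Amy2b itself was not tested.

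In the chitinase family 5 genes besides Chia were tested. Between adult and embryo 0 were called higher and 2 lower by limma, namely Chi3l1, a chitin-binding protein with no enzyme activity (log2 difference -2.27 ± 0.28, adjusted p = 7.06e-06), and Ctbs, the lysosomal chitobiase (-1.01 ± 0.12, adjusted p = 6.14e-06). Of all tested genes 38.0% were called lower at this contrast, a share close to that of the family. Ctbs was not called after median-of-ratios rescaling. Chi3l1 was already lower at P5 than in the embryo (-1.58 ± 0.36, adjusted p = 0.00839), with 5.04 to 7.68 FPKM at E14.5 and 0.809 and 0.913 FPKM at P5. Chid1, a chitinase domain protein, held between 10.5 and 20.8 FPKM in all samples and was not called in any of the comparisons. BC051070, whose coding sequence was 75% identical to that of Chia over 1272 aligned bases and whose windows were all found once, stayed at or below 0.226 FPKM. Between 12wk and 4wk 0 of the 5 genes were called by limma, with 1 at an unadjusted p below 0.05.

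Of the deoxyribonucleases, 8 besides Dnase1 were tested and 1 was called between adult and embryo. This was Endod1, an endonuclease domain protein, which was lower in the adult (-1.20 ± 0.12, adjusted p = 7.51e-07 by limma). At this contrast 5.58% of all tested genes were called higher and 38.0% lower. After median-of-ratios rescaling Endod1 was not called, and Dnase2a, Dnase1l1 and Endog were instead called higher. The rescaling also took the calls over all tested genes to 2020 higher and 2147 lower of 14601. The direction in this family thus moved with the scaling, as the calls over all tested genes did. Dnase2a, the acid DNase of lysosomes, measured 6.07 and 6.73 FPKM at 4wk and 8.09 and 8.05 FPKM at 12wk. Dnase1l1, a close relative of Dnase1, measured 11.3 and 7.87 FPKM and then 7.50 and 7.28 FPKM. Limma called 0 of the 8 genes between 12wk and 4wk, with 1 at an unadjusted p below 0.05.

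**Figure D4:**
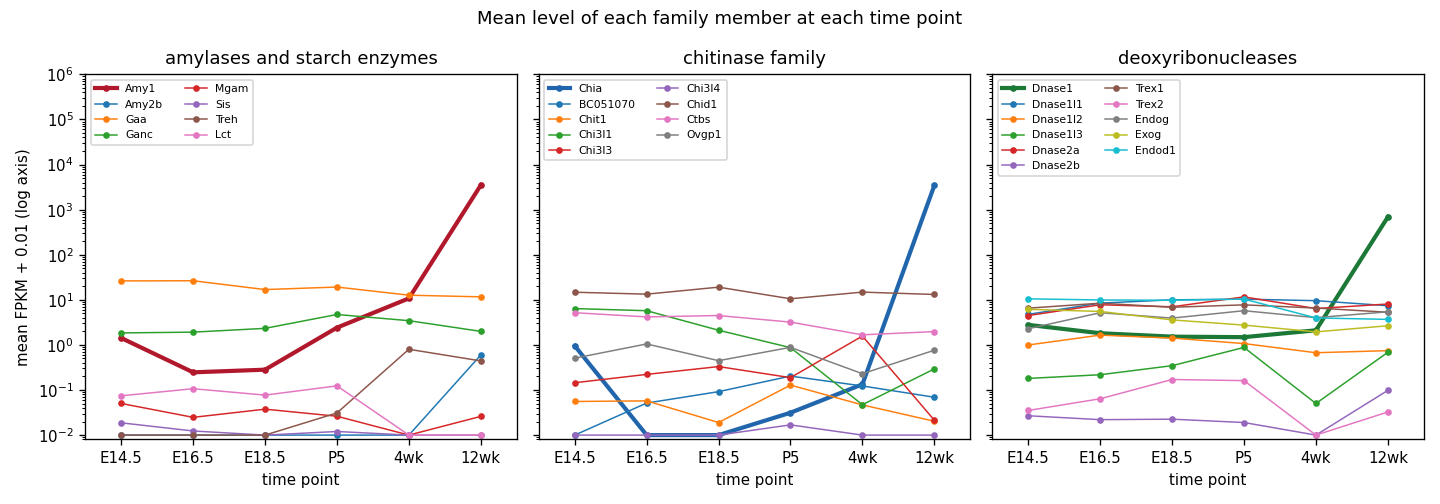
Mean FPKM + 0.01 on a log axis at each of the 6 time points for the members of 3 lists, the amylases and starch enzymes, the chitinase family and the deoxyribonucleases, leaving out genes at 0 in all samples and 1 gene not reported here. Thick lines are Amy1, Chia and Dnase1, which rise above the other members at 12wk.

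Enzyme families of other kinds were read beside the 3 genes. Of the ribonuclease A and T2 families, listed by family and not by enzyme activity, 6 genes were tested. Between 12wk and 4wk limma called Rnase10 higher (1.61 ± 0.22, adjusted p = 0.000919) and Ang and Rnaset2b lower (-1.35 ± 0.32, adjusted p = 0.0203, and -1.25 ± 0.18, adjusted p = 0.00147). At this contrast 2.68% of all tested genes were called higher and 2.48% lower. Rnase10 reached 3.28 and 2.47 FPKM at 12wk, well below the level of Dnase1. Among 8 other enzymes of saliva, 6 were called higher in the adult than in the embryo (Acpp, Car6, Klk1, Lpo, Lyz1 and Lyz2) and 0 lower, against 5.58% and 38.0% of all tested genes, and with E16.5 and E18.5 as the only embryos 3 were. Their time courses were not those of the 3 enzymes. Lpo, the lactoperoxidase of saliva, was at 378 and 345 FPKM by E18.5 and 333 and 277 FPKM at 12wk. Car6, the secreted carbonic anhydrase, was at 5403 and 5920 FPKM at P5, and Klk1, the tissue kallikrein, fell between 4wk and 12wk (-2.13 ± 0.25, adjusted p = 0.000435 by limma) while the 3 enzymes stood higher.

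Of the 20 lysosomal enzymes, which stay in the cell, 4 were called higher in the adult than in the embryo (among them Ctsd, Galc and Man2b1) and 4 lower (Arsa, Glb1, Gusb and Lipa), and after median-of-ratios rescaling 8 were higher and 0 lower. Galc and Man2b1 were also called higher at 12wk than at 4wk by limma (1.47 ± 0.15, adjusted p = 0.000136, and 1.18 ± 0.28, adjusted p = 0.0216). Of all tested genes 2.68% were called higher between these 2 ages. Of 4 pancreatic enzymes tested, 2 were called lower in the adult, among them Cpa1, a carboxypeptidase. Of 13 regulators tested, 2 were called higher in the adult, among them Bhlha15, a regulator of secretory cells, and 5 lower, against 5 higher and 3 lower after the rescaling. Of all tested genes 5.58% were called higher and 38.0% lower at this contrast before the rescaling. After it 2020 of 14601 tested genes were called higher and 2147 lower. Between 12wk and 4wk, where the 3 enzymes differed most, limma called 0 of the 13 regulators, with 1 at an unadjusted p below 0.05. Of all tested genes 5.15% were called between these ages, so a count of 0 among 13 is near the background. Bhlha15 was at 187 and 131 FPKM at 4wk and at 167 and 134 FPKM at 12wk. Ptf1a, the pancreatic factor, was at 0 in 12 of the 13 samples, and both samples of 12wk were among them.

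Over the 13 samples Chia and Dnase1 were closest to each other, with a Pearson r of log2(FPKM + 1) of 0.994, ahead of every other tested gene for both. Amy1 had an r of 0.954 with Chia and 0.957 with Dnase1. The 13 points share libraries and 6 ages, and the values are a description. Without the 12wk samples, r over the other 11 was 0.624 for Chia and Dnase1, 0.204 for Amy1 and Dnase1 and 0.0562 for Amy1 and Chia. The likeness of Amy1 to the others thus rests on the 12wk samples, and that of Chia and Dnase1 was also weaker without them. Chia had at most 3 reads in each sample from E16.5 to 4wk, so most of its values among these 11 are near the floor.

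The genes most like Amy1 were Upp2, a uridine phosphorylase (r = 0.986), Rcan2, an inhibitor of calcineurin (0.977), Igj, the joining chain of secreted immunoglobulins (0.974), H2-Oa, of the class II antigen pathway (0.973), and Gm9992 (0.973). Upp2 was the only one of the 5 to differ more than 2-fold between the 12wk samples (9.35 and 19.5 FPKM), and Igj, for example, was nearly even at 64.4 and 73.4 FPKM. After Dnase1, the genes most like Chia were Gm9041 (0.986), H2-Ea-ps (0.981), Sectm1a (0.978) and the complement gene C7 (0.977). After Chia, those most like Dnase1 were the potassium channel gene Kcnf1 (0.985), Gm9041 (0.973), Gm14137 (0.968) and C7 (0.960). Gm9041 had 28.4 and 34.6 FPKM at 12wk and 0 in both 4wk samples. The genes named here were higher at 12wk than at 4wk, and apart from the enzymes themselves and Upp2 and Kcnf1 they differed by less than 2-fold between the 12wk samples.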

How the data were processed

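Submandibular gland RNA of 13 samples was sequenced by the authors as 50 bp single-end reads, mapped to mm9 with TopHat2 2.0.13 and Bowtie2 2.2.6 and counted on UCSC genes with featureCounts, leaving out reads that map to more than 1 place. The submitters' processing notes also list DESeq2 1.10.1, which the study's methods use for scaling between samples. The authors deposited FPKM per gene, whose values fit division by the reads of each sample alone, so differences in RNA composition remain in them. Whole reads were recovered from the FPKM steps to within 1e-06 reads for the 3 genes. No batch is given in the labels.

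Genes that reached 1 FPKM in any sample (14650 genes) were compared as log2(FPKM + 1) with limma 3.58.1 (R 4.3.3, mean-variance trend, Benjamini-Hochberg over all tested genes), with the 3 stages or the 6 ages as groups. Adjusted p-values rest on 2 to 7 samples a group. They set each difference against the spread of these samples within groups, estimated with information from all tested genes. In the fit of 3 stages that spread includes differences between the ages joined in a stage. Genes were called at an adjusted p below 0.1 and a log2 difference of 1 or more either way, the thresholds of the study's methods. The code was tested on simulated data. Amy1, Chia and Dnase1 and the gene lists were chosen with earlier results of these data known. Named genes were the 3 enzymes, the 5 genes most correlated with each, the up to 4 genes of highest level in each list, and list members called where 4 or fewer were. Other genes were named after their values were seen, and a few genes and a sequence are not reported here. Sequences, exons and windows are from GENCODE vM1 on mm9, and promoter windows from RefSeq (GRCm38.p6). Alternatives were a pseudocount of 0.1, other filters, rescaling by median-of-ratios factors, no trend, a stricter adjusted p (0.05), the replicate number as a block, and each sample left out. FPKM are not counts, so no count model was run. Figures were drawn with matplotlib 3.10.9 under Python 3.11.15.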

Additional observations from a re-analysis of the deposited data

Results flagged for a closer look

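In the 4 adult samples 12wk replicate 2 stood apart from the other 3 for each of the 3 enzymes, with 6359.6 FPKM for Amy1, 6206.5 FPKM for Chia and 1225 FPKM for Dnase1. The gap to the next sample was 0.903, 0.892 and 0.881 of the whole range, above Dixon's 95% critical value for 4 samples. This is a description and no test, because the 3 genes were chosen with this gap known and the 4 samples join 2 ages. In each case 12wk replicate 1 was the next highest sample. Bpifa2 (33795 FPKM), Cst10 (2817 FPKM) and Smr3a (10417.7 FPKM), which were picked because they moved with the enzymes, stood apart in the same sample.

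Among the 7 embryonic samples, Dnase1 in E14.5 replicate 1 (4.13 FPKM) stood apart with a gap of 0.585 of the range, just above the critical value for 7 samples. In all, 12 groups of values of 6 genes were examined, and chance alone flags about 1 in 20 of such groups.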

How the results depend on the processing

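Of 356 values recomputed, 329 stayed within set limits, namely 1.5 times for a count in both directions together and 1 residual SD, which is wide for the adult minus embryo differences, for a log2 difference. Of the others 26 moved and 1 reversed. A count within the limit can still change its balance, as for P5 against embryo and the lysosomal enzymes after rescaling. Leaving out each sample in turn, the adult minus embryo difference ran from 4.74 to 7.80 for Amy1, 2.83 to 7.03 for Chia and 1.89 to 4.81 for Dnase1, lowest in each case without 12wk replicate 2, and the 12wk minus 4wk difference from 5.74 to 9.08, 9.23 to 12.44 and 5.59 to 8.63. A pseudocount of 0.1 moved the 12wk minus 4wk difference of Chia to 13.42. With 4wk as the only adults, chosen after the data were seen, the adult minus embryo differences were 2.83 for Amy1, -0.25 for Chia, which reversed, and 0.0297 for Dnase1. The counts of called genes were 6385 for adult against embryo, 3385 for adult against P5, 1798 for P5 against embryo and 755 for 12wk against 4wk. Median-of-ratios rescaling gave 4167 and 2137 for the first pair and a pseudocount of 0.1 gave 5320 for adult against P5 and 1658 for 12wk against 4wk. With E16.5 and E18.5 as the only embryos 1033 genes were called for P5 against embryo. Leaving out single samples gave 870 (without P5 replicate 1) to 2189 for P5 against embryo, with 1049 without P5 replicate 2, and 617 to 1472 (without 4wk replicate 2) for 12wk against 4wk. In the lists, the 3 enzymes included, a pseudocount of 0.1 gave 2 called amylases and starch enzymes (1 reported), 4 deoxyribonucleases (2 reported) and 2 ribonucleases (0 reported), rescaling gave 4 deoxyribonucleases and 2 ribonucleases, and leaving out single samples gave 0 to 1 ribonucleases, the 1 arising without either 4wk sample. With E16.5 and E18.5 as the only embryos 3 saliva enzymes (6 reported) and 1 pancreatic enzyme (2 reported) were called.

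The replicate numbers did not pair the samples, as the deviations of same-numbered samples had a mean correlation of -0.016 over 30 pairs, with 6 over 0.1. The replicate block gave 6262, 3354, 1489 and 741 called genes in the order above. Precision is limited by 2 samples at most ages and by the shallow 4wk samples, where 3 reads of Chia are worth 0.338 and 0.247 FPKM. Where an arm was left with 1 sample, that sample was assumed to vary like the others. The causes of these changes were not tested.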
